A study of Mus musculus with 32 samples.

Results

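Heterotrimeric G protein subunits and regulators of G protein signalling (RGS proteins) were examined as one family in the midbrain and medulla of the mouse. Members were chosen by annotated gene symbol alone: Gna, Gnb and Gng symbols (the alpha, beta and gamma subunits), and Rgs symbols followed by a number. A few Gnb symbols were left out, as were 3 probe sets annotated to both Gng5 and a Gng5 pseudogene. This gave 44 genes of the 12393 named on the array, read by 86 of 22626 probe sets: 14 alpha genes on 34 probe sets, 4 beta genes on 5, 8 gamma genes on 14 and 17 RGS genes on 32. The remaining member, Gnasas1, is an antisense RNA of the Gnas locus and no G protein, and was taken in only by the letters of its symbol.

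A heterotrimeric G protein couples a receptor in the membrane to enzymes and channels in the cell. The activated receptor loads GTP onto the alpha subunit, and alpha and the beta-gamma dimer then act on separate targets: Gs alpha stimulates adenylyl cyclase, Gi/o alpha inhibits it, Gq alpha activates phospholipase C beta, and beta-gamma opens GIRK potassium channels. RGS proteins end the signal by speeding the hydrolysis of GTP on alpha. Cckbr, the cholecystokinin B receptor, signals mainly through the Gq class, and the midbrain and medulla hold the descending pain pathways in which opioid receptors act through Gi/o.

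The arrays came from control mice and from mice deficient in Cckbr (KO mice), each after a sham operation or after chronic constriction injury (CCI), a model of neuropathic pain in which loose ligatures are tied around a peripheral nerve. Both regions were taken from each of 16 animals, 4 per combination of genotype and operation, which gave 8 groups of 4 arrays: control sham, control CCI, KO sham and KO CCI, in medulla and in midbrain. Strain, age, sex, the time between operation and sampling, and how the receptor was disrupted are not given in the sources used here. The deposited intensities are linear and partly below 0, and were treated as already corrected for background. Differences are log2 differences of intensity after 16 was added to every value, so that those of dim probe sets are understated. A difference was called where limma's adjusted p, taken over all 22626 probe sets, was under 0.05. Levels of different probe sets were not compared with each other. In whole tissue, fewer cells of a type and less RNA per cell cannot be told apart.

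Arrays of a group correlated at 0.962 to 0.989 over probe sets, which are no replicates of each other, and no 2 arrays held identical values. Cckbr itself read 122 to 200 on control arrays and -1.49 to 24.1 on KO arrays, with no overlap. All 6 measured Hox genes of the medulla list were higher in medulla, and all 5 measured genes of the midbrain list, Th and Slc6a3 among them, were higher in midbrain. Among the 16 arrays of a region, 3 KO sham arrays stood apart: KO sham medulla 3 was the lowest medulla array in 23.3% of all probe sets above the dimmest 33.3%, and KO sham midbrain 2 and 4 were the lowest midbrain array in 17.2% and 14.4%. KO sham medulla 3 was also the highest medulla array for all 6 measured of 8 cerebellar genes listed after the data were seen, with a summed intensity of 6970 against 1430 to 3120 on the other medulla arrays. Sums of other lists differed by region as well. The 6 neuronal genes summed to 15400 to 18000 in medulla and 11400 to 15200 in midbrain, with no overlap, Snap25 and Nefl being called lower in midbrain and Syt1 higher. The 5 oligodendrocyte genes summed to 19500 to 22400 in medulla and 17300 to 20100 in midbrain, and the 5 choroid plexus genes to 993 to 10600 and 232 to 5290. For the 6 astrocyte genes the sums were 11600 to 13800 in medulla and 10500 to 11600 in midbrain, with 3 called lower in midbrain and 1 higher. What part the makeup of cell types has in the results below was not tested.

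Region set the levels of many members. Of the 86 probe sets, 22 on 17 genes were higher in midbrain (25.6%, against 10.5% of all probe sets tested) and 14 on 8 genes were lower (16.3%, against 10.9%). The genes higher in midbrain were Rgs8, Rgs16, Rgs19, Rgs20, Rgs9, Rgs7, Rgs3, Gng4, Gng2, Gng3, Gng10, Gnb2, Gnb5, Gnao1, Gnaz, Gna11 and Gna13. Those higher in medulla were Rgs4, Rgs5, Rgs11, Gng11, Gng12, Gna12, Gna14 and Gnas. The median difference over the 86 probe sets was 0.03 and over all probe sets 0.01. Of the 86, 60 lay above the dimmest 33.3% of the array (a mean intensity of 48), and of these bright probe sets 29 were called (48.3%), against 28.6% of all bright ones. Where a gene had several probe sets, all had the same sign for 19 of 23 genes, and 6 were called on every probe set. In the main fit none of the 23 had calls in opposite directions, but Gnao1 did once KO sham midbrain 2 was left out. The sample descriptions carry an array code whose meaning is not stated. Within the lower and the higher code, 17 and 18 member probe sets were called, against 7.37% and 9.80% of all probe sets, and all 36 called over both codes kept their direction in each. These 36 were called on the same arrays, so this agreement is no separate support.

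**Figure D1:**
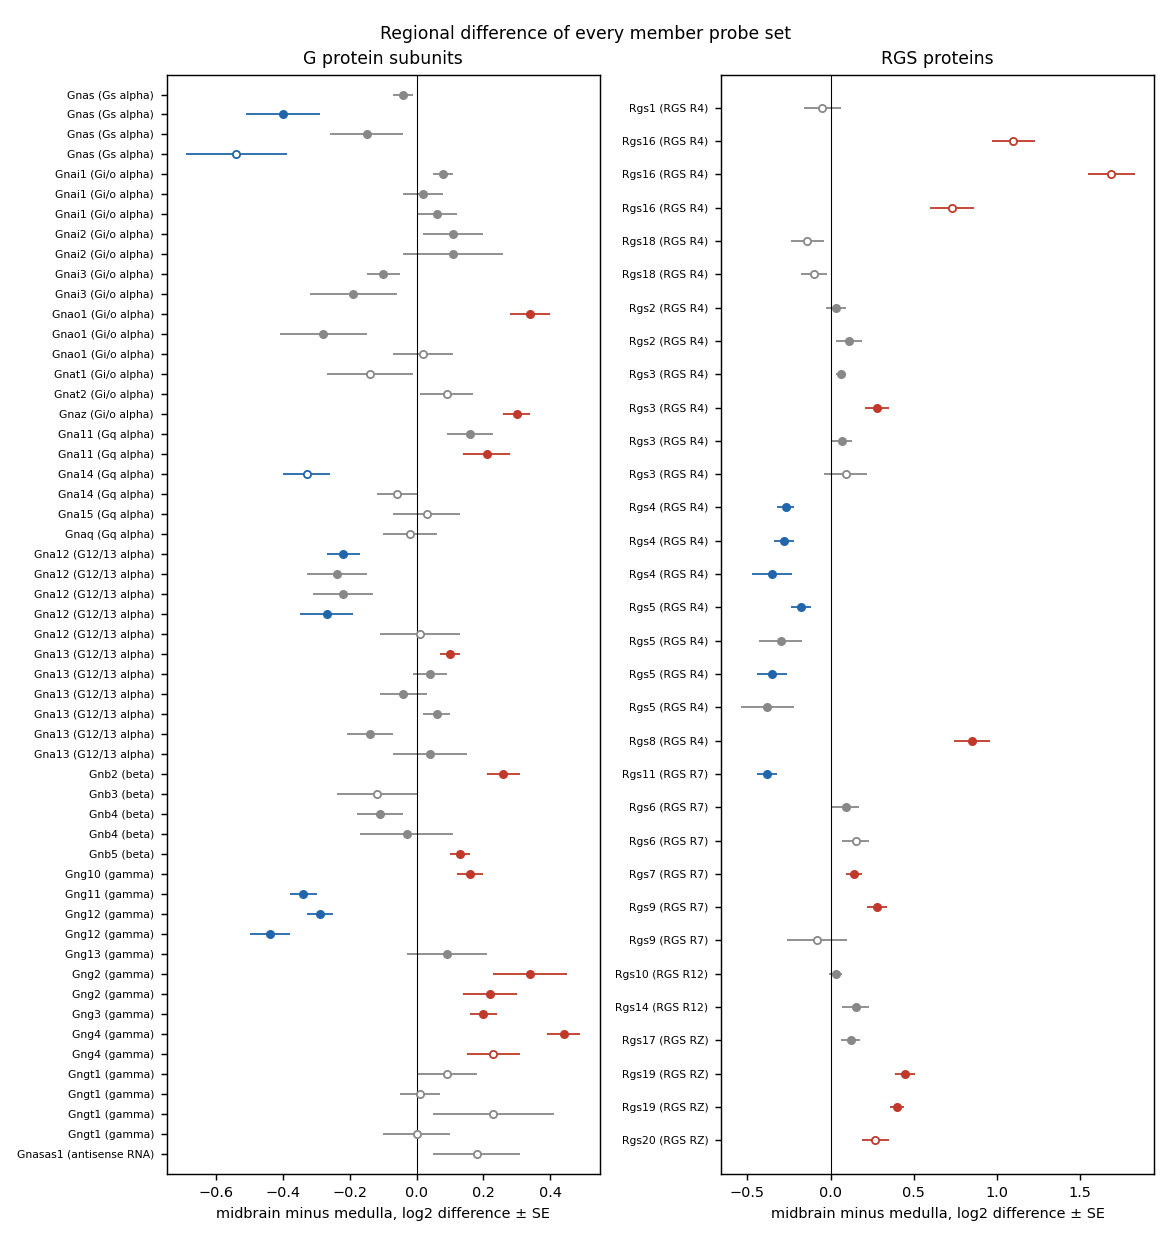
Midbrain minus medulla log2 difference (x axis, point and SE, 16 arrays per region) of each of the 86 member probe sets, with G protein subunits on the left and RGS proteins on the right, ordered by class. Red points were called higher in midbrain (22) and blue ones lower (14), grey points were not called, and open points lie in the dimmest 33.3% of the array; the x axes differ, with Rgs16 reaching 1.69.

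Gamma subunits, which anchor the beta-gamma dimer to the membrane, held calls in both directions, 6 higher and 3 lower in midbrain of 14 probe sets. These shares were 42.9% and 21.4%, against 10.5% and 10.9% of all probe sets. Of the 9 bright gamma probe sets 8 were called (88.9%, against 28.6% of all bright ones). Gng4 was the clearest gamma subunit: its brighter probe set (1417943_at) had its lowest, median and highest intensity at 72.4, 102 and 118 in medulla and at 121, 140 and 193 in midbrain. Every midbrain array lay above every medulla array. The log2 difference was 0.44 (SE 0.05, adjusted p = 4.54e-07), and a second, dimmer Gng4 probe set differed by 0.23 (adjusted p = 0.0395), a call lost on 16 of the 32 single omissions. Only 2 member probe sets, this one and one of Rgs16, were so separated upward, 2.33% against 0.698% of all probe sets, and 0 were separated downward, against 0.747%.

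Gng11 and Gng12 went the other way. Gng11, a farnesylated gamma subunit found widely outside neurons, read 792, 945 and 1170 in medulla and 662, 720 and 974 in midbrain (lowest, median and highest). The ranges overlapped, but the midbrain array was the lower one in 16 of 16 animals. The difference was -0.34 (SE 0.04, adjusted p = 8.6e-07). Gng12 was likewise lower in the midbrain of 16 of 16 animals on both its probe sets, at 293, 352 and 400 in medulla against 244, 283 and 320 in midbrain on the brighter one (1455089_at). Its differences were -0.29 (SE 0.04, adjusted p = 2e-06) and -0.44 (SE 0.06, adjusted p = 2.66e-06).

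Gng3, a gamma subunit of neurons, was modestly higher in midbrain in 16 of 16 animals, with medians of 2310 in medulla and 2610 in midbrain and a difference of 0.20 (SE 0.04, adjusted p = 0.000305). Gng10 had medians of 402 and 441 and a difference of 0.16 (SE 0.04, adjusted p = 0.00665), though in KO sham mice its value was -0.02. Gng2, the prototype gamma partner in many reconstituted G proteins, rested on arrays that went different ways. On its brighter probe set (1418452_at) medulla arrays read 76.4, 113 and 129 and midbrain arrays 32.7, 156 and 203, the lowest midbrain value being KO sham midbrain 2 and the next 128. With that array the difference was 0.34 (SE 0.11, adjusted p = 0.0244), and without it 0.43 (SE 0.06, adjusted p = 3.79e-06). In KO sham mice alone, with KO sham midbrain 2 included, the value on 1418452_at was -0.05. The second Gng2 probe set differed by 0.22 (adjusted p = 0.0396), a call that 13 single omissions ended. Gng13, best known from taste cells, and the rod subunit Gngt1 had no called probe set among their 1 and 4.

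Among the beta subunits, which form the propeller that carries gamma, 2 of 5 probe sets were called and both were higher in midbrain (40%, against 10.5% of all probe sets). Gnb2 read 555, 628 and 735 in medulla and 637, 773 and 868 in midbrain, with an overlap of the ranges but a higher midbrain array in 16 of 16 animals. Its difference was 0.26 (SE 0.05, adjusted p = 0.00041). Gnb5, the divergent beta subunit that pairs with RGS proteins of the R7 family in place of a gamma subunit, had medians of 652 and 707 and a smaller difference of 0.13 (SE 0.03, adjusted p = 0.0038). Gnb3 and both probe sets of Gnb4 were not called, at -0.12, -0.11 and -0.03.

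Alpha subunits were called in about the share seen over the whole array, 4 higher and 5 lower of 34 probe sets (11.8% and 14.7%), or 7 of the 25 bright ones (28.0%, against 28.6% of all bright probe sets). In the Gi/o class 2 of 13 probe sets were called, both higher in midbrain (15.4%, against 10.5% of all probe sets). Both were among its 10 bright probe sets, a share of 20%, below the 28.6% of all bright ones. Gnaz, the Gi relative that hydrolyses GTP slowly, read 591, 744 and 866 in medulla and 843, 919 and 1060 in midbrain. Only the tops of the medulla range reached the lowest midbrain arrays, and midbrain was higher in 16 of 16 animals. The difference was 0.30 (SE 0.04, adjusted p = 3.39e-06). Gnao1, the major alpha subunit of neurons, was higher in midbrain on its brightest probe set (1421152_a_at), at 614, 797 and 894 against 790, 991 and 1130. That difference of 0.34 (SE 0.06, adjusted p = 9.9e-05) was not shared by the other Gnao1 probe sets, at -0.28 and 0.02 and not called. The first of these (1448031_at) read 112 on KO sham midbrain 2 and 21.6 to 63.2 on the other midbrain arrays. Without that array limma called it lower in midbrain (-0.37, SE 0.10, adjusted p = 0.00635), opposite to 1421152_a_at (0.32). Gnai1, Gnai2 and Gnai3, the inhibitory subunits proper, were not called on any of 7 probe sets, with values between -0.19 and 0.11, nor were the transducins Gnat1 and Gnat2 at -0.14 and 0.09.

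Gnas, the Gs alpha subunit, comes from an imprinted locus with several transcripts, and its probe sets differed. The brightest (1450186_s_at) read 5050, 5470 and 5840 in medulla and 4330, 5240 and 5600 in midbrain. These ranges overlapped widely and the difference of -0.04 (SE 0.03) was not called. Probe set 1421740_at read 154, 304 and 414 in medulla against 127, 199 and 291 in midbrain and was called at -0.40 (SE 0.11, adjusted p = 0.0122). A dim one (1427789_s_at), at medians of 33.1 and 20.9, was called at -0.54 (SE 0.15, adjusted p = 0.00717), and the fourth was at -0.15 and not called.

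The Gq class, through which Cckbr signals, showed a small rise and a dim fall. Gna11 was higher in midbrain on 1 of 2 probe sets, at medians of 409 and 484 (0.21, SE 0.07, adjusted p = 0.0384), and the other was at 0.16 and not called. That call was lost on the omission of any of 14 arrays, with an adjusted p of up to 0.0689. Gna14, at medians of 21.6 in medulla and 13.1 in midbrain, was lower in the midbrain of 16 of 16 animals (-0.33, SE 0.07, adjusted p = 0.000969), but both levels lie in the dimmest 33.3% of the array and its other probe set was at -0.06 and not called. Gnaq and Gna15 were dim and not called, at -0.02 and 0.03. In the G12/13 class, Gna12 was lower in midbrain on 2 of 5 probe sets, the brighter of them at 319, 390 and 531 in medulla against 299, 337 and 384 in midbrain (-0.22, SE 0.05, adjusted p = 0.00191; the other -0.27). A pair of further Gna12 probe sets at -0.24 and -0.22 were not called, and a dim one was at 0.01. Gna13 was called on 1 of 6 probe sets at 0.10 (SE 0.03, adjusted p = 0.0418), a call ended by 18 of the single omissions (adjusted p up to 0.0728) and by median centring (adjusted p = 0.117).

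RGS proteins had the widest spread of any class, from -0.38 to 1.69, with 10 higher and 6 lower of 32 probe sets (31.2% and 18.8%, against 10.5% and 10.9% of all probe sets). The R4 family of small RGS proteins held both ends: of its 20 probe sets, 5 were higher and 5 lower in midbrain (25% each). Its members lie partly in pairs on chromosome 1. Rgs8 and Rgs16 are next to each other, with 87.3 kb between their starts and 0 protein-coding genes between them, and both were higher in midbrain. Rgs4 and Rgs5 are also adjacent, 92.1 kb apart, and both were lower. Their promoters are shown because the members of each pair moved together: 250 bases before the most upstream listed start, from RefSeq on GRCm38.p6, read in the direction of the gene. Capitals mark matches to CCAAT, to TATAAA and to GGGCGG on either strand.
Rgs8: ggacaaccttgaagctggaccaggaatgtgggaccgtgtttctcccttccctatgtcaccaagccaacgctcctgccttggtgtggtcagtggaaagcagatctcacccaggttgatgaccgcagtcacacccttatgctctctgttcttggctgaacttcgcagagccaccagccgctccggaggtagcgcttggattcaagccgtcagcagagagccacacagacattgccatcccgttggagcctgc
Rgs16: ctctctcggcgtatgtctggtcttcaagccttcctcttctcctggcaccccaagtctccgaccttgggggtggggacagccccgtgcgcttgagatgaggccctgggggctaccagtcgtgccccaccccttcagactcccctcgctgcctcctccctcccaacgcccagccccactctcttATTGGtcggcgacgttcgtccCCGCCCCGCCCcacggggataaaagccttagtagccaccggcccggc
Rgs4: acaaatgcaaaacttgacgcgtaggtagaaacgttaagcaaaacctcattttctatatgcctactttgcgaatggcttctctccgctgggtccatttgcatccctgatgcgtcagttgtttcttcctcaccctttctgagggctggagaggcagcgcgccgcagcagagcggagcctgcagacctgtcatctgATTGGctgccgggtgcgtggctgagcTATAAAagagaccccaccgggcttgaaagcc
Rgs5: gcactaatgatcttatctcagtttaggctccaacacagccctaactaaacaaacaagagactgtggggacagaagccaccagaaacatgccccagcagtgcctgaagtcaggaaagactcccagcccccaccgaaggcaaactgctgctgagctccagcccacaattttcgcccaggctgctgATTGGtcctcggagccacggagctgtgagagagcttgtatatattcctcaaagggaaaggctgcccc

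These windows are chr1:153652787-153653036 and chr1:153740103-153740352 on the plus strand, chr1:169747643-169747892 on the minus strand and chr1:169655251-169655500 on the plus strand. The Rgs8 window held none of the motifs. CCAAT, here always as its reverse complement, began 68, 57 and 67 bases before the start of Rgs16, Rgs4 and Rgs5, and 33.8% of 32851 promoter windows of this length hold it. TATAAA occurred in the Rgs4 window, 31 bases before the start, and in 12.4% of all windows. GGGCGG occurred as an overlapping pair of reverse complements in the Rgs16 window and in 32.7% of all windows. The motifs did not divide the pair higher in midbrain from the pair lower there, and a match is a description of the letters, not a shown site.

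Rgs8, an R4 protein abundant in cerebellar Purkinje cells, had the largest difference of any bright member. Medulla arrays read 204, 241 and 769 and midbrain arrays 420, 486 and 594. The ranges overlapped through KO sham medulla 3 alone, at 769, since the other 15 medulla arrays reached at most 335. The difference was 0.85 (SE 0.11, adjusted p = 1.35e-06), and without that array 0.95 (SE 0.05, adjusted p = 1e-13). On KO sham medulla 3 the Purkinje cell genes Pcp2 and Calb1 read 826 and 1940, against 147 to 340 and 438 to 1010 on the other medulla arrays. Within KO sham mice the Rgs8 value was 0.62 with this array and 1.04 without it. The 6 cerebellar genes summed to 1250 to 2840 on midbrain arrays. Their part in the Rgs8 values was not tested.

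Rgs16, an R4 protein whose RNA cycles with the clock in parts of the brain, was higher in midbrain on all 3 of its probe sets, each in the dimmest 33.3%. On 1426037_a_at the lowest, median and highest medulla arrays were at -8.18, 3.03 and 15.3, at the level of background, and midbrain arrays at 25.7, 53.9 and 128. No medulla array reached a midbrain one. The differences on the 3 probe sets were 1.69 (SE 0.14, adjusted p = 3.97e-10), 1.10 (SE 0.13, adjusted p = 1.95e-07) and 0.73 (SE 0.13, adjusted p = 0.000137). No fold is given, since the medulla values do not stand above background. Midbrain arrays of a group were spread themselves: KO CCI midbrain 1 to 4 read 128, 44.4, 56.9 and 54.2.

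Rgs4, the RGS protein of many neurons that acts on Gi/o and Gq alpha, was lower in midbrain on all 3 probe sets. On the brightest (1416286_at) medulla arrays read 847, 993 and 1130 and midbrain arrays 650, 775 and 1170. Midbrain was lower in 15 of 16 animals, and the highest midbrain value, KO CCI midbrain 1, lay above all medulla arrays. The differences were -0.27 (SE 0.05, adjusted p = 8.12e-05), -0.28 (SE 0.06, adjusted p = 0.00118) and -0.35 (SE 0.12, adjusted p = 0.0405), the last of them lost on 17 single omissions. Rgs5, whose RNA marks pericytes, was called lower on 2 of 4 probe sets (-0.18, SE 0.06, adjusted p = 0.0349, and -0.35, SE 0.09, adjusted p = 0.00352), with the others at -0.30 and -0.38 and not called. The first of these calls was lost on 12 single omissions, with an adjusted p of up to 0.0648. Of 6 other genes of pericytes and vascular smooth muscle, Pdgfrb and Acta2 were higher in midbrain (0.22 and 0.42) and Abcc9 was lower (-0.28); their sum was 472 to 833 in medulla and 547 to 1020 in midbrain. Rgs3 was called higher on 1 of 4 probe sets (0.28, SE 0.07, adjusted p = 0.00558), its brightest being at 0.06. Rgs2, an RGS protein that favours Gq alpha, was not called on either probe set (0.03 and 0.11), nor were Rgs1 and Rgs18 of blood and immune cells, which were dim.

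**Figure D2:**
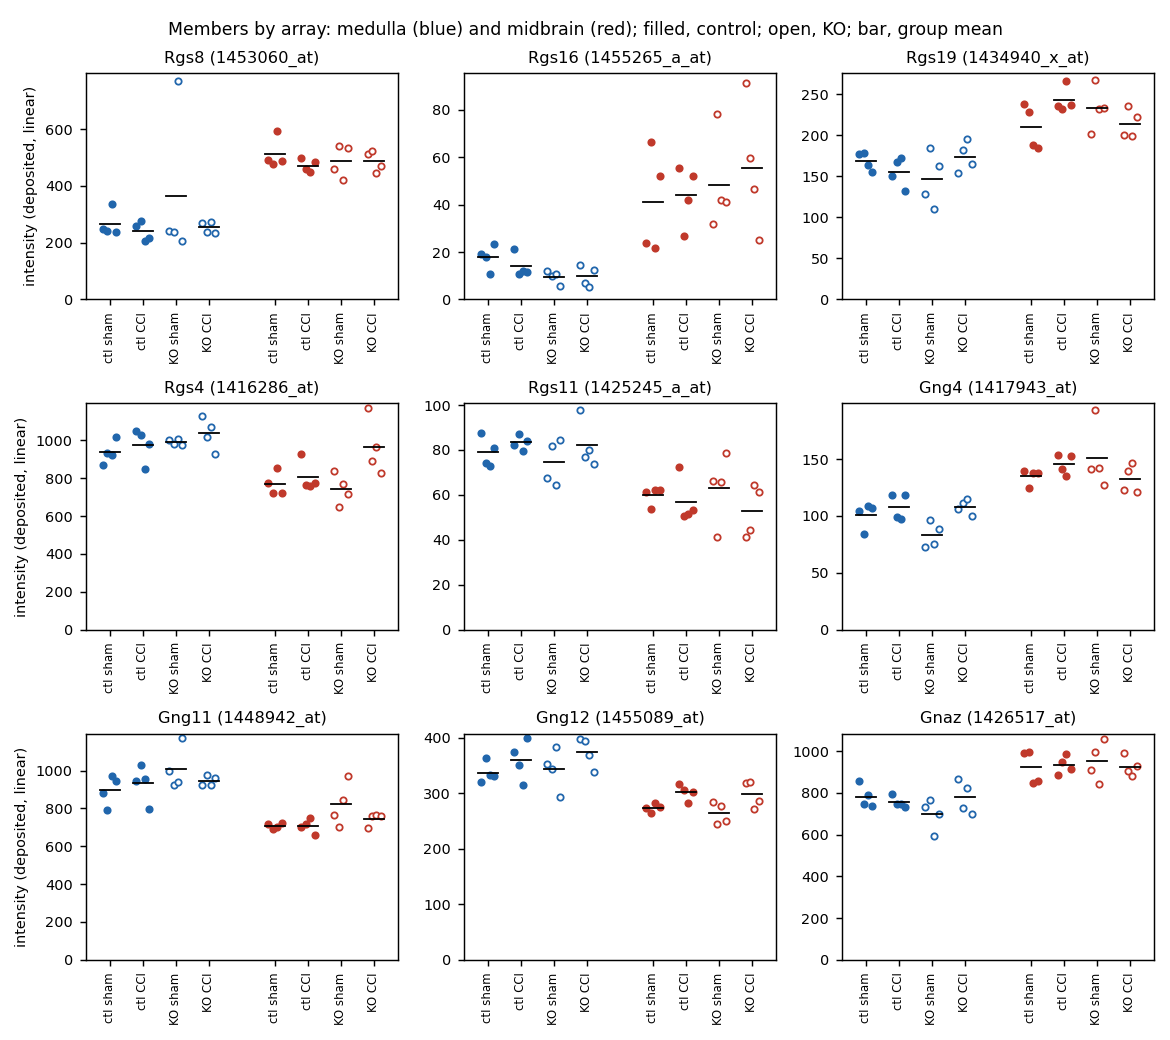
Deposited intensity (y axis, linear) of 9 members on every array, with medulla in blue and midbrain in red, control mice as filled and KO mice as open points, and a bar at each group mean (4 arrays). Rgs8, Rgs16, Rgs19, Gng4 and Gnaz were higher in midbrain and Rgs4, Rgs11, Gng11 and Gng12 lower; the single high medulla point of Rgs8 is KO sham medulla 3, at 769.

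In the R7 family, whose proteins carry a gamma-like domain and pair with Gnb5, members diverged. Rgs9, the form of striatum and retina, read 70.3, 90.3 and 122 in medulla and 90.6, 108 and 148 in midbrain on its bright probe set, higher in midbrain in 15 of 16 animals with overlapping ranges. The difference was 0.28 (SE 0.06, adjusted p = 0.000581), while a dim Rgs9 probe set stood at -0.08. Rgs7 was higher by 0.14 (SE 0.05, adjusted p = 0.0462), a call that 18 single omissions ended, with an adjusted p of up to 0.0835. Rgs11 was lower, at 64.3, 80.4 and 97.9 in medulla and 41.1, 61.2 and 78.5 in midbrain. Its midbrain array was the lower one in 15 of 16 animals, and the difference was -0.38 (SE 0.06, adjusted p = 2.7e-05). Rgs6 was at 0.09 and 0.15 and not called, and in the R12 family Rgs10, abundant in microglia, and Rgs14 were at 0.03 and 0.15, not called either. The 6 microglial genes had no call, with sums of 1960 to 2510 in medulla and 1950 to 2640 in midbrain.

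The RZ family, which acts on Gnaz and other Gi/o subunits, was higher in midbrain on 3 of 4 probe sets (75%, against 10.5% of all probe sets). Rgs19 read 110, 164 and 196 in medulla and 185, 232 and 268 in midbrain on one probe set (1434940_x_at) and had medians of 112 and 152 on the other. A few arrays overlapped at the border, and on both probe sets midbrain was higher in 16 of 16 animals. The differences were 0.45 (SE 0.06, adjusted p = 6.92e-07) and 0.40 (SE 0.04, adjusted p = 6.08e-08). Rgs20, dim at medians of 25.1 and 33.2, was higher by 0.27 (SE 0.08, adjusted p = 0.0156), with a value of -0.01 in KO CCI mice, and Rgs17 at 0.12 was not called.

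The regional differences were present in each of the 4 animal groups for most called members: 33 of 36 probe sets had the same sign in control sham, control CCI, KO sham and KO CCI mice, the exceptions being Gng2, Gng10 and Rgs20. The calls were made on the mean of these 4 differences, so agreement in sign was favoured by the choice and is no separate support. Rgs8 stood at 0.92, 0.94, 0.62 and 0.92 in these groups, the KO sham value being the one with the high medulla array. Gng11 stood at -0.35, -0.38, -0.29 and -0.33, and Gnb2 at 0.23, 0.22, 0.33 and 0.24. Others varied more between groups of animals. Gng4 (1417943_at) lay between 0.24 in KO CCI mice and 0.75 in KO sham mice, Gnaz between 0.21 in control sham and 0.44 in KO sham mice, and Rgs4 (1416286_at) between -0.42 in KO sham mice and -0.10 in KO mice after CCI. Whether CCI changes the regional difference in KO mice was not tested.

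Other genes of the pathway, taken from a list of effectors, receptor kinases, arrestins and G protein modulators and read on the brightest probe set of each, were described the same way. Of 36 measured, 8 were higher in midbrain and 1 was lower in the main fit. In a separate fit with 1 probe set per gene, 10 of the 36 were called. That is a share near that of all genes in the same fit, where 25.7% of 12393 were called and 50.3% of these calls were higher. Higher were the adenylyl cyclases Adcy2 (0.25), Adcy3 (0.19) and Adcy7 (0.30), the protein kinase A catalytic subunit Prkacb (0.24), the GIRK channel subunit Kcnj9 (0.33), the receptor kinase Grk6 (0.22), the arrestin Arrb1 (0.24) and the Gi modulator Gpsm3 (0.34, dim). Pdcl, a chaperone of beta-gamma assembly, was lower (-0.19). The phospholipase C isoforms Plcb1, Plcb2, Plcb3 and Plcb4, the targets of Gq, were not called at values from -0.05 to 0.21. The median over the 36 genes was 0.07. Of these 9 calls, 2 were made within the lower array code and 3 within the higher.

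Some members varied more between animals or arrays than between regions; these were picked out after their values were seen. Gnai2 differed by array code on 1 of its 2 probe sets in both regions. On that one (1419449_a_at) the 7 medulla arrays of the lower code read 234 to 320 and the 8 of the higher code 442 to 515, and in midbrain the ranges were 253 to 389 and 453 to 545. The remaining array of each region, with a code of its own, read 316 and 300. The codes did not overlap in either region, while medulla and midbrain did. On the other Gnai2 probe set (1435652_a_at) the lower and higher code read 677 to 758 and 808 to 1340 in medulla, without overlap, and 699 to 992 and 949 to 1160 in midbrain, with overlap. Gna11 on 1449144_at was also without overlap of the codes in midbrain, at 395 to 477 and 479 to 585, but not in medulla. How many of all probe sets separate by code was not counted, so this is not shown to be particular to these genes. Gnb4 on probe set 1419469_at was high in both regions of the same 3 animals: KO CCI 1 read 233 in medulla and 222 in midbrain, control CCI 1 read 173 and 196, and the KO sham animal of medulla array 3 and midbrain array 4, paired by array number, read 150 and 165. The other 13 animals read 76.7 to 113 and 80.6 to 114. On the second Gnb4 probe set those 3 animals were the highest in midbrain but not in medulla. Gng13 was highest in both regions in that same KO sham animal, at 785 in medulla and 1040 in midbrain, against at most 472 and 581 in the other 15 animals. Both arrays of this animal are among the KO sham arrays that stood apart over the whole array. KO sham medulla 3 was also the highest medulla array for the cerebellar genes. What part this had in the Gnb4 and Gng13 values was not tested.

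Loss of Cckbr called no member in either region. In medulla 0 of 86 probe sets passed the limma threshold against 0.053% of all probe sets (12 of 22626), and 2 (2.33%) had an unadjusted p under 0.05, against 3.36%. In midbrain 0 passed against 0.0309%, and 7 (8.14%) had an unadjusted p under 0.05, against 7.47%. Differences of the bright members lay between -0.20 and 0.28 in medulla and between -0.36 and 0.23 in midbrain, with a median SE of 0.09 and 0.08. The shares at an unadjusted p under 0.05 were thus near or below those of the array.

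The members of smallest p show the size of what was seen. In medulla, Rgs16 (1455265_a_at) read 19.2, 17.9, 10.5 and 23.2 in control sham, 21.4, 10.8, 12.1 and 11.4 in control CCI, 11.9, 9.95, 10.5 and 5.45 in KO sham and 14.3, 7.06, 5.31 and 12.3 after CCI in KO mice. KO arrays tended to the lower values, all within the dim range, and the groups overlapped (-0.30, SE 0.11, adjusted p = 1). Gng10 in medulla read 395, 382, 374 and 311 in control sham, 435, 426, 333 and 345 in control CCI, 422, 456, 416 and 426 in KO sham and 386, 419, 409 and 391 after CCI in KO mice. KO sham medulla 2, at 456, lay above every control array, and the other KO arrays lay within the control range (0.15, SE 0.07, adjusted p = 1).

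In midbrain, Gnas (1421740_at) read 184, 225, 245 and 176 in control sham, 267, 261, 204 and 291 in control CCI, 189, 181, 224 and 233 in KO sham and 127, 158, 186 and 195 after CCI in KO mice. Sham groups overlapped, and the CCI groups did not, with every KO CCI array below every control CCI array (-0.29 over both operations, SE 0.10, adjusted p = 0.577). The share of all probe sets separated in this way was not counted. Rgs9 (1418691_at) read 90.6, 110, 136 and 105 in control sham, 106, 103, 105 and 92.6 in control CCI, 131, 134, 148 and 141 in KO sham and 99.4, 112, 131 and 106 after CCI in KO mice. KO sham arrays were high, and of the control arrays only control sham midbrain 3 reached them (0.20, SE 0.07, adjusted p = 0.583). Of the Gq class, Gnaq stood at -0.20 in medulla and -0.16 in midbrain and Gna11 between -0.11 and 0.05 over its 2 probe sets and both regions, each with an adjusted p of 0.783 or more.

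**Figure D3:**
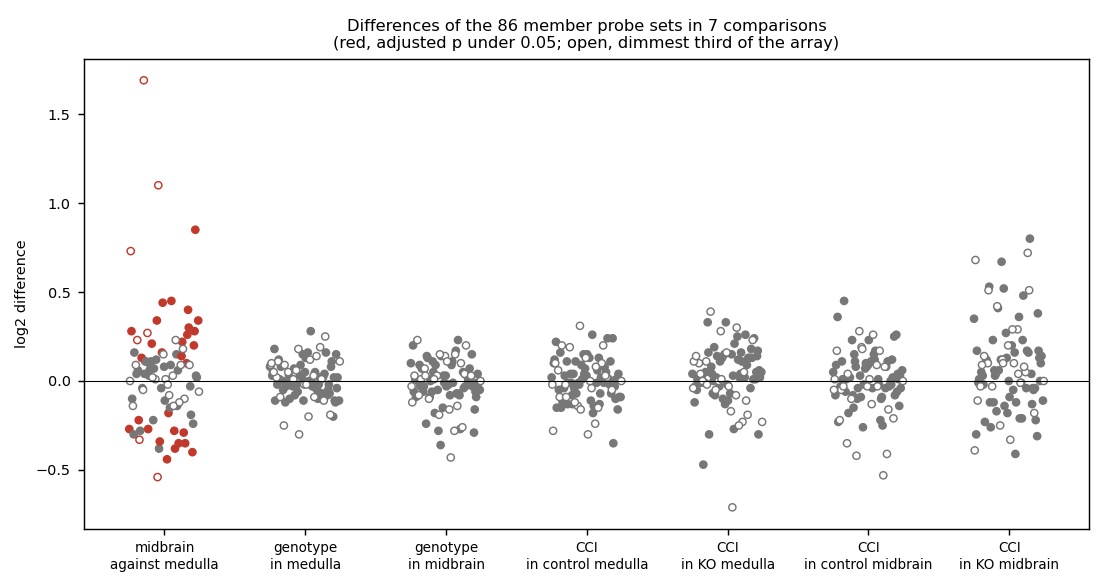
Log2 differences (y axis) of the 86 member probe sets in 7 comparisons (x axis), 1 point per probe set, with open points in the dimmest 33.3% of the array. Red points, 36 for midbrain against medulla and 0 in the other 6 comparisons, had a limma adjusted p under 0.05; the points for CCI in KO midbrain spread upward to 0.80 (Rgs4).

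CCI in control mice called no member either. In medulla 0 of 86 passed, as did 0% of all probe sets, and 0 had an unadjusted p under 0.05, against 2.79%. In midbrain 0 passed, as did 0% of all, and 4 (4.65%) had an unadjusted p under 0.05, against 3.01%. The SE of a difference between such groups of 4 was 0.12 for the median bright member. In medulla the smallest p values were those of Gnai3 (1437225_x_at), at 101, 119, 90.5 and 101 in control sham and 76.5, 91.3, 84.9 and 62.2 in control CCI mice, and of Rgs4 (1448285_at), at 149, 239, 203 and 217 and at 263, 257, 210 and 245. CCI arrays of Gnai3 lay low with 1 array overlapping (-0.35, SE 0.23), and those of Rgs4 lay high with overlap (0.24, SE 0.18), each with an adjusted p of 1.

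In control midbrain a dim Gnao1 probe set (1460383_at) read 23.5, 28.1, 35.5 and 40.4 in sham and 30.5, 13.5, 15.6 and 15.5 in CCI mice. Of the CCI arrays 3 lay below all sham arrays and control CCI midbrain 1 among them (-0.42, SE 0.15, adjusted p = 1). Gnb4 (1419470_at) read 115, 112, 107 and 102 in sham and 147, 131, 123 and 123 in CCI mice. Every CCI array lay above every sham array, but the difference of 0.23 (SE 0.11) had an adjusted p of 1. This probe set was picked for its small p, and the share of all probe sets separated in this way was not counted. Its highest array, at 147, was control CCI midbrain 1, from an animal high in both regions on the other Gnb4 probe set.

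In KO mice CCI called no member, with 0 of 86 in medulla and 0 in midbrain, as for 0% of all probe sets in each. In medulla 4 (4.65%) had an unadjusted p under 0.05, against 4.25%. In midbrain 14 (16.3%) did, 12 of them higher after CCI, against 8.24% of all probe sets, of which 60.4% were higher. The 14 probe sets belong to 12 genes, Rgs4 with 3 of them. This count moved with single arrays, from 8 without KO CCI midbrain 1 to 25 without KO sham midbrain 1. The share of all probe sets is not given for those omissions. The count was 11 without KO sham midbrain 2 and 4 together (against 7.64% of all probe sets), 5 of the 14 among them.

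Rgs4 was higher after CCI in KO midbrain on all 3 probe sets by estimate, with none called. On 1416286_at KO sham midbrain arrays read 836, 650, 771 and 718 and KO CCI arrays 1170, 890, 966 and 827. A single sham array, at 836, reached into the CCI range (0.35, SE 0.11, adjusted p = 0.6). On 1416287_at they read 257, 226, 238 and 243 against 410, 283, 328 and 260, with no overlap, a separation not counted over all probe sets (0.36, SE 0.12, adjusted p = 0.6). On 1448285_at they read 187, 51.9, 169 and 174 against 385, 217, 250 and 172, where KO sham midbrain 2 was far below the rest and 1 CCI array lay among the sham arrays (0.80, SE 0.28, adjusted p = 0.6). Without KO sham midbrain 2 and 4 the 3 values were 0.24, 0.32 and 0.42. In control midbrain the same probe sets were at 0.05, 0.01 and -0.03.

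Others of the 14 were Rgs9, which read 131, 134, 148 and 141 in KO sham and 99.4, 112, 131 and 106 in KO CCI midbrain (-0.30, SE 0.10, adjusted p = 0.6), and Gng2 (1418452_at) at 128, 32.7, 138 and 140 against 203, 163, 151 and 157. Sham and CCI arrays of Rgs9 met at 131, and all CCI arrays of Gng2 lay above all sham arrays. How many of all probe sets were so separated was not counted. The Gng2 value of 0.67 (SE 0.27, adjusted p = 0.6) was 0.30 without KO sham midbrain 2 and 4. Rgs18 (1420398_at), of platelets and blood cells, had the smallest p, at -1.92, 5.80, 3.20 and 1.78 in KO sham and 11.9, 11.9, 11.2 and 10.9 in KO CCI midbrain. Every one of these readings is at the level of background, so the value of 0.51 (SE 0.12, adjusted p = 0.6) is given without a fold, and the other Rgs18 probe set is dim as well. The neuronal marker list moved with these groups: 6 neuronal genes summed to 11400 to 14400 on KO sham midbrain arrays and to 14700 to 15200 on KO CCI arrays, with 15000 to 15200 in control sham and 14700 to 15200 in control CCI midbrain. Its part in the Rgs4 and Gng2 values was not tested.

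**Figure D4:**
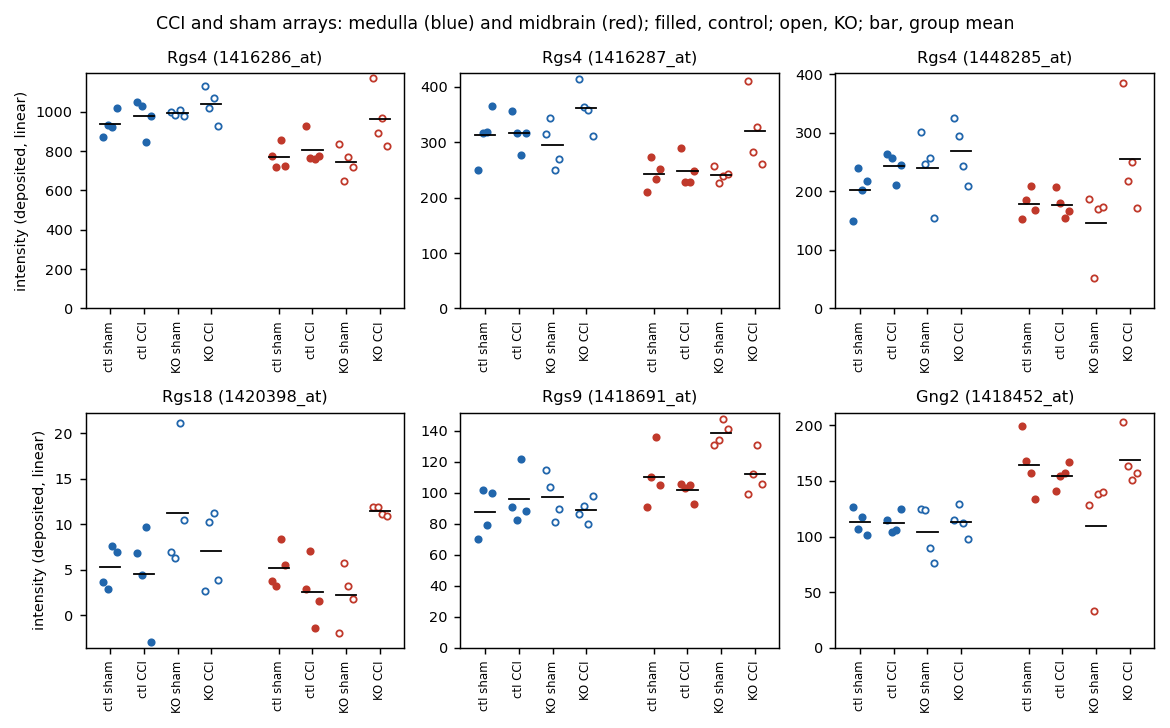
Deposited intensity (y axis, linear) of 3 Rgs4 probe sets and of Rgs18, Rgs9 and Gng2 on every array, with medulla in blue and midbrain in red, control mice filled, KO mice open, and a bar at each group mean (4 arrays). KO CCI midbrain arrays of Rgs4 lie above most KO sham ones, at 827 to 1170 against 650 to 836 on 1416286_at, and the low KO sham point of Gng2, at 32.7, is KO sham midbrain 2.

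Whether the effect of CCI differed by genotype, or that of genotype or CCI by region, was tested directly and gave no member. For genotype by CCI, 0 of 86 passed in medulla and in midbrain, as did 0% of all probe sets, with 0 members at an unadjusted p under 0.05 in medulla (against 2.66%) and 8 (9.30%) in midbrain (against 5.48%). The largest midbrain value was that of the antisense RNA Gnasas1 (1.14, SE 0.32, adjusted p = 0.822), all of whose arrays are dim: KO sham midbrain read -0.0401, 4.61, 0.254 and 1.80 and KO CCI midbrain 16.5, 15.4, 18.7 and 9.26. Control sham midbrain read 15.2, 7.27, -6.18 and 25.9 for it and control CCI midbrain 2.12, 8.10, 3.14 and 1.44. Rgs4 had interaction values of 0.31, 0.35 and 0.83 (SE 0.16, 0.17 and 0.40, adjusted p = 0.822 each), so the CCI difference of KO midbrain is not shown to differ from that of control midbrain. For genotype by region 0 of 86 passed (0% of all) and 0 had an unadjusted p under 0.05, against 3.81%. For CCI by region in control mice 0 passed (0% of all) and 1 (1.16%) had an unadjusted p under 0.05, against 1.81%. None of the 36 listed pathway genes was called by limma in these comparisons or in those of genotype and CCI, with at most 3 of them at an unadjusted p under 0.05 in any.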

How the data were processed

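RNA of 32 samples was extracted with TRIzol, and cRNA from 4 ug of it was hybridised to Affymetrix mouse arrays, per the labels' protocols. The authors deposited 1 intensity per probe set and array, on a linear scale and partly below 0 (2.15% of values at or below 0). Whether and how they background-corrected and scaled it was not given in the sources used here. Values under 0 were set to 0, 16 was added, log2 taken and arrays quantile-normalized. The 64 control probe sets were left out. A mean per group was fitted with limma 3.58.1 in R 4.3.3 (lmFit, eBayes), on all 32 arrays between regions and on the 16 arrays of a region otherwise, with Benjamini-Hochberg adjustment over all probe sets, both tails. The fit was tested on simulated data. With 4 arrays in a group, their number limits the precision.

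Both regions came from each animal, per the design. Consecutive array numbers gave the pairs, since titles and array numbers disagree for KO sham 3 and 4. Over probe sets, residuals of an animal's 2 arrays correlated at -0.0497 to 0.364 (median 0.144, over 0.1 in 10 of 16 animals). Taken per probe set over the 16 animals, the median correlation was 0.343 for all bright probe sets and 0.441 for bright members. The main regional fit left this pairing out, and a fit with the animal as a block is given among the alternatives. Probe sets were named by GEO's platform annotation: 20380 have 1 gene symbol, 691 several and 1555 none. All 86 members matched RefSeq genes of GRCm38.p6.

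Members, lists and tests were chosen with earlier results of these data known. Named were, per class and direction, up to 4 genes with the largest regional call (6 for RGS proteins) on their brightest probe set above the dimmest 33.3% of the array, and the smallest p of each direction for genotype and for CCI in control mice. Rgs16, Rgs20, Gna14, Gnas, Gna11 and Rgs3 by region, members named for CCI in KO mice and its interactions, Gnai2, Gnb4 and Gng13 by animal, and the other values without a call were added after their values were seen. Alternatives were median centring, a pseudocount of 1 or 64, the dimmest 33.3% left out, a trended robust variance, array code or replicate as a block, fits within a code or an animal group, 1 probe set per gene and omission of arrays.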

Additional observations from a re-analysis of the deposited data

Results flagged for a closer look

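Intensities of the 32 named probe sets were screened for an array far from the other 3 of its group. The measure is the gap to the nearest array over the range of the group, compared with Dixon's 95% limit for 4 values. It was passed in 17 of 256 groups, and chance alone passes it in about 1 of 20. KO sham medulla 3 was high for Rgs8 (769 against 204 to 241, ratio 0.934) and low for Rgs3 (33.5 against 64.9 to 70.3, ratio 0.853). KO sham midbrain 2 was low for Gng2 (32.7 against 128 to 140, ratio 0.889) and for Rgs4 on 1448285_at (51.9 against 169 to 187, ratio 0.867). Rgs8 was also high on control sham medulla 3 (335 against 236 to 248, ratio 0.878) and on control sham midbrain 3 (594 against 479 to 493, ratio 0.872), the pair of arrays of 1 animal.

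Control CCI midbrain 1 was high for Rgs4 on 1416286_at (928 against 758 to 776, ratio 0.896), for Rgs11 (72.3 against 50.6 to 53.2, ratio 0.88) and for the dim Gnao1 probe set (30.5 against 13.5 to 15.6, ratio 0.878). Control sham midbrain 2 was low for Rgs11 (53.6 against 61.2 to 62.2, ratio 0.883) and Gng4 (125 against 138 to 140, ratio 0.83). Single arrays also stood out for Rgs19 in control CCI midbrain 3 (267 against 232 to 237, ratio 0.856), Gng11 in KO CCI midbrain 1 (698 against 759 to 764, ratio 0.922) and Gnb5 in KO CCI medulla 4 (589 against 664 to 674, ratio 0.876). The others were Rgs16 in control CCI medulla 1 (21.4 against 10.8 to 12.1, ratio 0.876), Gnai3 in KO CCI medulla 1 (81.1 against 116 to 122, ratio 0.844) and Rgs3 in KO CCI medulla 3 (71.1 against 64.5 to 64.6, ratio 0.971). The causes were not tested.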

How the results depend on the processing

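The regional count of 36 member probe sets (22 higher and 14 lower in midbrain) stayed within 1.5 times under median centring, both other pseudocounts, the dimmest probe sets left out, a trended robust variance, the array code as a block and the omission of KO sham midbrain 2 and 4 with KO sham medulla 3 (37, an omission chosen after seeing the data). With the animal as a paired block it was 42, and 43 where the title numbers defined the replicate block, and all 36 calls were kept in both. Over the 32 single omissions it lay between 30 and 40 (17 to 24 higher, 12 to 17 lower), and 29 of the 36 calls held in every omission. Fits to fewer arrays gave fewer calls. Within the lower array code there were 17 (11 higher, 6 lower) and within the higher 18 (11 and 7), against 7.37% and 9.80% of all probe sets. Within control sham mice there were 6 (4 and 2), within control CCI mice 10 (8 and 2), within KO sham mice 14 (9 and 5) and within KO CCI mice 8 (5 and 3). Of all probe sets 3.23%, 4.38%, 7.09% and 4.77% were called in these 4 fits, so the whole array varied between them too. With 1 probe set for each of the 44 member genes 22 were called, 7 of them lower, against 25.7% of all 12393 genes in that fit.

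Gng2 and Gng10 reversed within KO sham mice (-0.053 and -0.023) and Rgs20 within KO CCI mice (-0.011). The Gng2 value (1418452_at) includes KO sham midbrain 2, at 32.7. The other KO sham midbrain arrays read 128 to 140, above all KO sham medulla arrays, at 76.4 to 125. The causes of the Gng10 and Rgs20 reversals were not tested. The pathway list's 9 calls became 2 and 3 within the codes, 1, 0, 4 and 0 within control sham, control CCI, KO sham and KO CCI mice, and 8 to 10 over the omissions. Shares of all probe sets called in the code and animal group fits are given above. The 14 members at an unadjusted p under 0.05 for CCI in KO midbrain became 6 within either code, 15 with the replicate block, 8 to 25 over 16 omissions and 11 without KO sham midbrain 2 and 4. Of these alternatives only the last has a share of all probe sets at that p beside it (7.64%). The changes in count are thus not shown to be particular to members. For genotype, CCI and the interactions the count of members called was 0 under all alternatives run; some within-code fits could not be made, where a group had under 2 arrays of a code. Of 1564 recomputed values of named probe sets, 1403 kept direction and side of the threshold, 158 lost the threshold and 3 reversed. Dim members (26 of 86) give differences that are understated and close to background.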
